A study of Homo sapiens with 10 samples.

Results

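DAZL and GCNA are germ cell genes that human myeloid leukaemia and myelodysplasia cell lines did not show above array background, and that were above it in every line after treatment with OR21, by little for GCNA in MDSL. Background here means the upper edge of the background probe sets. The pair is 2 of the 17687 genes measured. It was chosen on these same arrays, for higher levels with OR21 in every line and levels near those of the parental cells in both resistant HL60 derivatives. Those levels and differences are therefore given as a description, without a test. OR21 is the compound OR-2100, which the series title calls a hypomethylating agent resistant to cytidine deaminase.

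The series held 10 arrays of total RNA, 1 per condition, all from established lines labelled with a period of 96 hours. OR21-treated cells and their controls came from HL60, an acute myeloid leukaemia line (500 nM), MDSL and SKM1, lines from myelodysplastic syndrome (100 nM each), and K562, a chronic myeloid leukaemia line (500 nM). The other 2 arrays came from HL60 derivatives labelled AZA resistant and OR21 resistant, given no treatment and compared with parental HL60 control cells. The medium of MDSL held IL-3 and 2-mercaptoethanol, those given for SKM1 and HL60 did not, and none was given for K562. The labels do not say whether a derivative is 1 clone or a pool, nor whether arrays came from separate cultures. Dose, disease and line change together and cannot be told apart. Measured myeloid markers differed between lines, but not all in the same order. The granule enzyme MPO stood at 17.01 log2 in control HL60, 17.08 in control SKM1, 8.62 in control MDSL and 6.23 in control K562. LYZ stood at 17.71, 17.03, 15.22 and 12.03 in the same order. CSF3R was highest in control MDSL, at 10.93, against 8.49 in HL60, 8.74 in SKM1 and 4.43 in K562. PTPRC was also higher in control MDSL (13.89) than in control HL60 (11.35). The erythroid factor GATA1 stood at 13.14 in control K562, 10.99 in control MDSL, 6.80 in control HL60 and 6.49 in control SKM1.

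DAZL encodes an RNA-binding protein that attaches to untranslated ends of germ cell messages and promotes their translation. In mice it is needed for germ cells to commit to their fate and enter meiosis. GCNA encodes the germ cell nuclear acidic protein, made of a long acidic disordered stretch and, in humans, a SprT-like metalloprotease domain. Studies in worms, flies and mice tie it to the handling of proteins crosslinked to DNA. In somatic cells many germ cell genes are kept silent by DNA methylation at promoters rich in CpG dinucleotides, and the promoter of DAZL is a textbook example.

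The promoter windows are shown because CpG dinucleotides are the main sites of DNA methylation in vertebrates, although methylation was not measured in these files. Both genes matched the RefSeq promoter table (GRCh38.p14), in which a window runs from 250 bases before a transcript start to 50 bases after it. CpG dinucleotides are in capitals, and each line reads 5′ to 3′ on the strand of the gene.
DAZL window 1, chr3:16605374-16605673, minus strand: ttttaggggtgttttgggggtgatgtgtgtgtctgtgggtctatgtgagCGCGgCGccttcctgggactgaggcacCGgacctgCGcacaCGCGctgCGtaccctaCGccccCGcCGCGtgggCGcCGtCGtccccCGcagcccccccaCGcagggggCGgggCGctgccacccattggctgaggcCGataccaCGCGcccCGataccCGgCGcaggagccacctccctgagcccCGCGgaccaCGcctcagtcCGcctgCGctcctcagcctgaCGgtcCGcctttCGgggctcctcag
DAZL window 2, chr3:16604741-16605040, minus strand: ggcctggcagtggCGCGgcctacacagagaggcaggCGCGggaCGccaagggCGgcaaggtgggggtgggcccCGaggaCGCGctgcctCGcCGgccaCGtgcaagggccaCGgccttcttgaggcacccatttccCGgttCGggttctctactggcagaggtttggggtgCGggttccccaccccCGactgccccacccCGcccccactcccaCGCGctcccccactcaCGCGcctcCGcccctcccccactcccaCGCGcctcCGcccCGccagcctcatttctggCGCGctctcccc
GCNA window 1, chrX:71578187-71578486, plus strand: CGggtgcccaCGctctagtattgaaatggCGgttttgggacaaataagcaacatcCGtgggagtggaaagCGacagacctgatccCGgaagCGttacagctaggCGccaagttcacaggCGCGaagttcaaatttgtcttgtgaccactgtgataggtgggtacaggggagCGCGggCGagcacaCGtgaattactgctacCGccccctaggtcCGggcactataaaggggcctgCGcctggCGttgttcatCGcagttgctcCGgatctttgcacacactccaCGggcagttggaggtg

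DAZL window 1 held 33 CpG dinucleotides, more than 82.8% of the 35116 windows in the table, and window 2 held 29, more than 75.8%. The GCNA window held 21, more than 60.5% of windows, and the median window held 14. The observed over expected CpG ratio was 0.86 in DAZL window 1, 0.73 in DAZL window 2 and 0.87 in the GCNA window. The GC content was 71.7%, 74.0% and 57.0% in the same order, and the median window had 58.7%. The E-box CACGTG, a palindrome that MAX and MGA of a germline-repressing Polycomb complex can bind, was searched on both strands. It started at position -154 from the transcript start in DAZL window 2 and at -67 in the GCNA window, and these letters were not found in DAZL window 1. Of all windows, 7.3% held the E-box, so a match describes the letters only. The E2F motif TTCCCGC, on either strand, was in none of the 3 windows and in 6.6% of all windows. The E-box contains a CpG, so the motif and the CpG count overlap.

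Background was read from 23 background probe sets on each array, which the array groups by the GC content of their probes. They formed 2 tiers. The 11 sets with 8 to 18 GC bases lay between 2.78 and 4.27 log2, and the other 12 lay between 4.98 and 8.42. The median over these sets, 4.98 to 5.43, is the value of 1 set at the bottom of the upper tier, so the 95th percentile of the sets on an array, 6.95 to 7.12 log2, was used as the upper edge of background. The GC content of the DAZL and GCNA probes was not given in the sources used here, so which tier suits them is not known. The OR21-treated HL60 array stood apart in its hybridisation spikes, which averaged 11.71 log2 there and between 10.85 and 11.10 elsewhere. The mean differences of both genes and their dose comparison are also given without HL60.

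DAZL, on chromosome 3 (probe set TC0300010431.hg.1), had a level of 12.33 log2 in OR21-treated HL60, 11.93 in OR21-treated K562, 13.02 in OR21-treated SKM1 and 9.00 in OR21-treated MDSL. Its control levels were 4.29 in HL60, 4.13 in K562, 4.62 in SKM1 and 4.14 in MDSL. All 4 treated arrays lay above every control array. DAZL was chosen for a rise in every line, so this is a description. How many of all genes were separated in this way was not counted. In RNA from a whole culture, more cells with DAZL message and more message per cell cannot be told apart. On the linear scale OR21-treated SKM1 had an intensity of 8335 and its control 24.5. DAZL ranked above 93.0% of all genes on the OR21-treated HL60 array and above 15.4% on the HL60 control array.

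Set against background, DAZL exceeded all 23 background sets on each of the 4 treated arrays. It exceeded 11 of them on the HL60, MDSL and SKM1 control arrays and 10 on the K562 control array, which is about the top of the lower tier. Relative to the 95th percentile of background the control levels were at -2.96 to -2.49 log2. Among the 612 probe sets named as negative controls, DAZL exceeded 97.1% or more on every treated array and 35.6% to 53.3% on the control arrays. The untreated level was thus not well above background in any of the 4 lines.

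GCNA, on chromosome X (probe set TC0X00007574.hg.1), had a level of 11.96 log2 in OR21-treated HL60, 13.58 in OR21-treated K562, 11.18 in OR21-treated SKM1 and 7.84 in OR21-treated MDSL. Its control levels were 5.76 in HL60, 5.21 in K562, 5.67 in SKM1 and 5.30 in MDSL. The 4 treated arrays again lay above all 4 controls, a description with the same limits. The linear intensity in K562 was 12286 with OR21 and 37.0 in the control. The treated MDSL array was the closest to the controls, 0.89 log2 above the 95th percentile of background of its array.

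GCNA controls stood near the bottom of the upper background tier, above 12 of 23 background sets in HL60, MDSL and SKM1 and above 11 in K562. Relative to the 95th percentile of background they were at -1.88 to -1.28 log2. GCNA exceeded 94.4% or more of the negative control sets on the treated arrays and 61.3% to 75.2% of them on the control arrays. In treated MDSL it was, at 7.84 log2, under the 95th percentile of the negative control sets, 8.04. On every treated array it exceeded all 23 background sets.

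**Figure D1:**
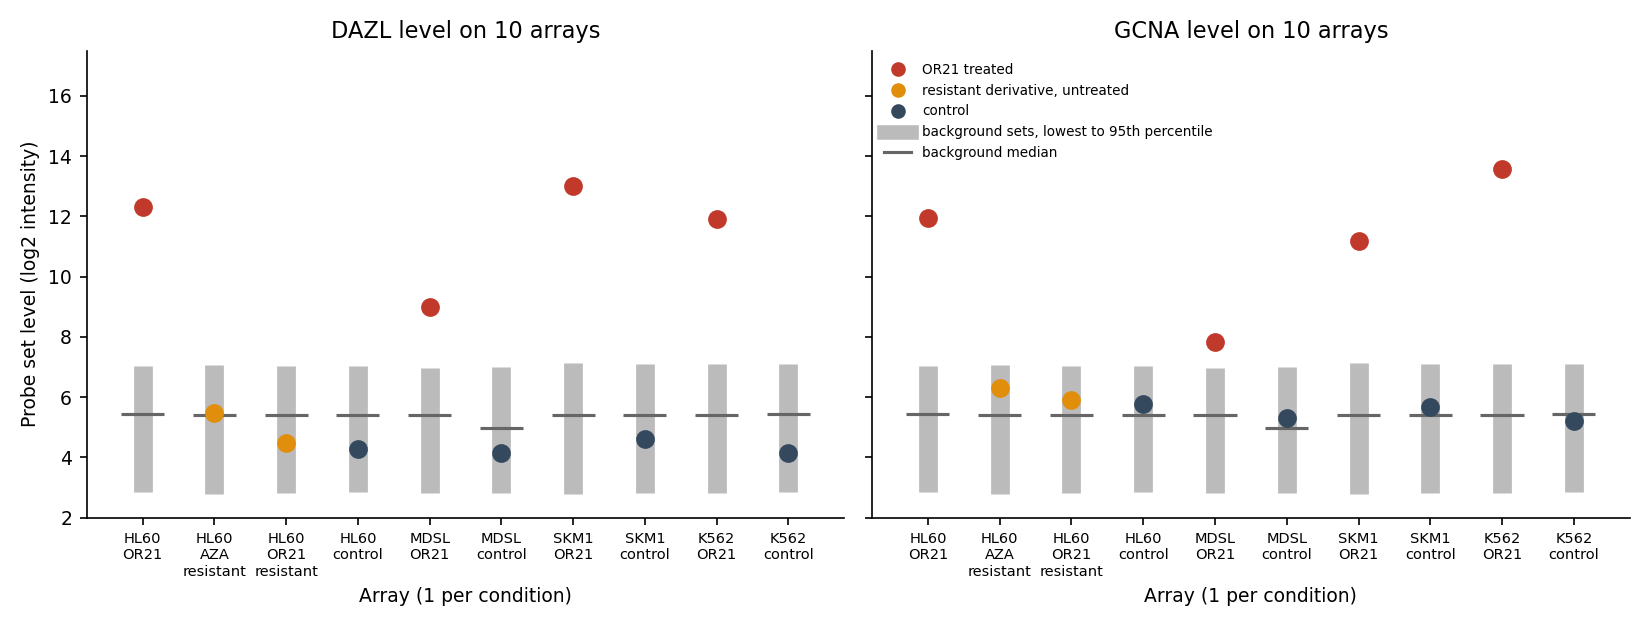
Probe set level (log2 intensity, y axis) of DAZL and GCNA on each of the 10 arrays (x axis), with grey bars from the lowest to the 95th percentile of the background probe sets of that array and a line at their median. The 4 OR21 arrays lie above the grey bars, from 9.00 to 13.02 log2 for DAZL and from 7.84 to 13.58 for GCNA, and the derivatives and controls lie within the bars.

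Because every control was under the edge of background, each difference is also given as a bound, with the control raised to the 95th percentile of background on its array. DAZL was higher with OR21 by 8.04 log2 in HL60, 7.80 in K562, 8.41 in SKM1 and 4.86 in MDSL. As bounds this was at least 39.2-fold higher in HL60, at least 28.6-fold in K562, at least 60.5-fold in SKM1 and at least 3.96-fold in MDSL. The mean measured difference was 7.28 ± 1.63 log2 (SD, n = 4 lines), and the mean of the bounds was 4.51 ± 1.74. Without HL60 the mean measured difference was 7.02. Genes at least 2-fold higher with OR21 made up 10.2% of all genes in HL60, 5.05% in K562, 7.1% in SKM1 and 6.62% in MDSL, and DAZL was among them in each line.

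GCNA was higher with OR21 by 6.20 log2 in HL60, 8.38 in K562, 5.51 in SKM1 and 2.54 in MDSL. The bounds were at least 30.3-fold in HL60, at least 90.3-fold in K562, at least 16.8-fold in SKM1 and at least 1.78-fold in MDSL. The mean measured difference was 5.66 ± 2.41 log2 (SD, n = 4 lines), and the mean of the bounds was 4.08 ± 2.39. Without HL60 the mean measured difference was 5.47. The MDSL bound is under the 2-fold size used for counts, so in that line the difference past background is small.

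**Figure D2:**
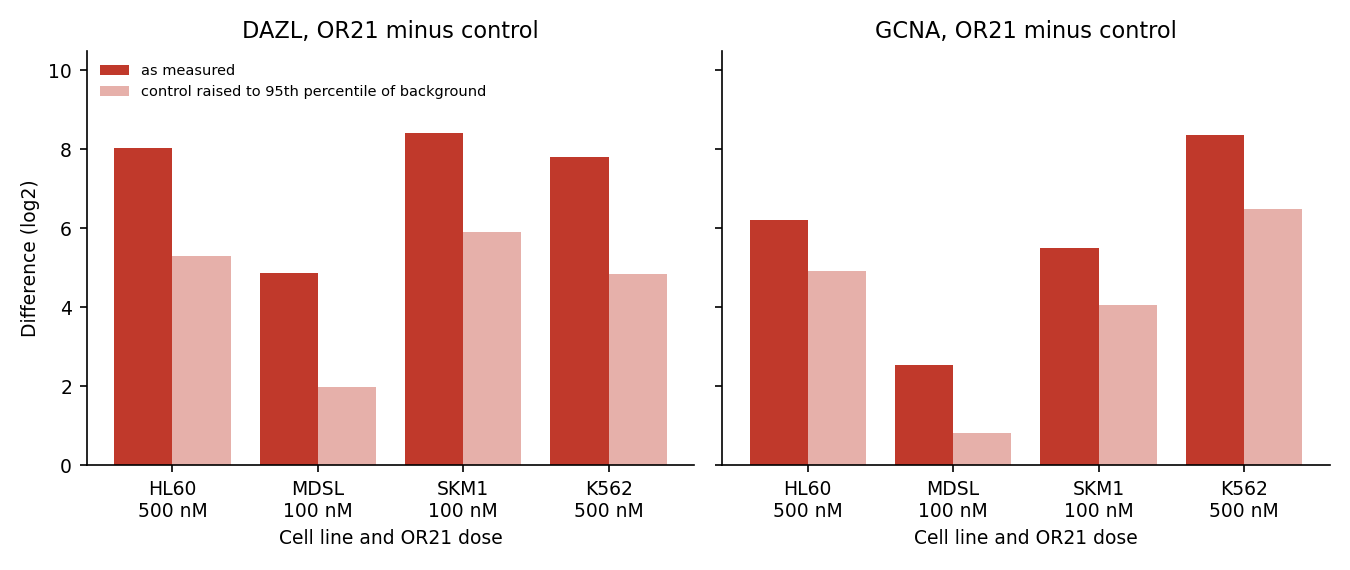
Difference between OR21-treated and control cells (log2, y axis) in each line with its dose (x axis), as measured (dark bars) and with the control raised to the 95th percentile of background (light bars), 1 treated and 1 control array per line. DAZL ranges from 4.86 to 8.41 and GCNA from 2.54 to 8.38 as measured, with MDSL lowest for both.

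The 2 genes did not order the lines alike. DAZL was highest in treated SKM1, followed by HL60, K562 and MDSL, and GCNA was highest in treated K562, followed by HL60, SKM1 and MDSL. MDSL was lowest for both. With 1 array per condition the spread between replicates is unknown, so neighbours in these orders cannot be separated.

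The choice asked for a rise in every line and not for a gap between the 500 nM and 100 nM lines. It did use these same values, and the rise it asked for limits how low a line can be. The gap, fitted as an interaction in limma over the 4 lines, is therefore given as a description, without a p-value. The DAZL difference averaged 7.92 log2 in the 500 nM lines and 6.63 in the 100 nM lines, a gap of 1.29. The GCNA difference averaged 7.29 in the 500 nM lines and 4.02 in the 100 nM lines, a gap of 3.27. Over all 17687 genes this fit put 0% past the adjusted threshold of 0.05 and 5.47% at an unadjusted p under 0.05. The fit therefore cannot separate a gap from the spread between lines. Without MDSL, the DAZL gap turned to -0.49. Without SKM1 it was 3.06 and without HL60 it was 1.17, and the GCNA gap was 4.75 without SKM1, 4.35 without HL60 and 1.78 without MDSL.

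In the untreated resistant derivatives both genes stayed under the upper edge of background. DAZL was at 5.46 log2 in the AZA resistant derivative and 4.47 in the OR21 resistant derivative, against 4.29 in parental HL60. The differences were 1.17 and 0.18 log2. The AZA resistant value is more than 2-fold above the parental one, a difference larger in size than that of 90.9% of all genes. DAZL exceeded 72.9% of the negative control sets in the AZA resistant derivative and 41.7% in parental HL60. Relative to background on its array the AZA resistant value was at -1.61 log2 from the 95th percentile and 0.04 above the median. With values under the background median raised to it, the difference was 0.04 log2, since this floor raises the parental value. Whether DAZL is raised in this derivative cannot be told from 1 array at this level. GCNA was at 6.30 in the AZA resistant and 5.91 in the OR21 resistant derivative, against 5.76 in parental HL60, differences of 0.54 and 0.15. Relative to the 95th percentile of background they were at -0.77 and -1.13 log2.

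Set against HL60 given OR21, the AZA resistant derivative differed by -6.87 log2 for DAZL and -5.66 for GCNA as measured, and the OR21 resistant derivative by -7.86 and -6.05. With the derivative raised to the 95th percentile of background on its array, DAZL was at least 38.3-fold lower in the AZA resistant and at least 39.1-fold lower in the OR21 resistant derivative. GCNA was at least 29.7-fold and at least 30.3-fold lower in the same order. As these 2 genes were chosen for this contrast, it is a description. These comparisons share the parental control array or the treated HL60 array, so they are not independent of each other. The derivatives were not measured after OR21 in the arrays used here.

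The pattern itself was uncommon among all genes. At least 2-fold higher in all 4 lines were 75 genes (0.424%), among them both members, and 36 genes (0.204%) were also within 2-fold of parental HL60 in both derivatives. With values under the 95th percentile of background raised to it, 15 genes (0.0848%) had that pattern. GCNA is among the 36 and not among the 15, since its MDSL bound is under 2-fold. DAZL is outside the 36 through its 1.17 log2 in the AZA resistant derivative, and is among the 15, where that difference is 0.03. Without 1 line these counts changed by over 1.5 times: the 75 became 157 without MDSL and 288 without K562, and the 36 became 65 without HL60, 69 without MDSL and 139 without K562.

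A stricter version of the pattern used background alone. Under the 95th percentile of background in all 4 controls were 7773 genes (43.9%). Of the 17687 genes, 12 (0.0678%) were also above it on all 4 OR21 arrays, and 6 (0.0339%) were in addition under it in both derivatives. These 6 were DAZL, GCNA, the serine protease gene PRSS8, the interleukin-18 receptor subunit gene IL18RAP, TRANK1 and the sialyltransferase gene ST6GALNAC2. PRSS8 and TRANK1 are named because the count is small, after their values were seen. The mean difference was 2.52 log2 for PRSS8, 2.15 for IL18RAP, 1.46 for TRANK1 and 0.91 for ST6GALNAC2. DAZL and GCNA ranked 1 and 2 of all genes by mean difference, so any other gene lies under them.

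Across the 10 arrays the levels of DAZL and GCNA had a Pearson r of 0.96. Among the 6801 other genes with a range of at least 2 log2 units, each was the most like the other. This is a description: the 10 arrays share lines and the split between treated and untreated cells, on which both genes were chosen. After GCNA, the genes most like DAZL were IL18RAP (r = 0.93), the extracellular matrix gene EFEMP2 (0.93), SLC67A1 (0.91), ST6GALNAC2 (0.89) and the phosphatase gene DUSP1 (0.89). After DAZL, those most like GCNA were the transketolase-like gene TKTL1 (r = 0.95), the cancer-testis gene PAGE2B (0.94), TEX13C (0.93), PAGE2 (0.92) and the glutathione peroxidase gene GPX3 (0.87). PAGE2 and PAGE2B are near-identical copies, so their probe sets may not be separate. SLC67A1 and TEX13C were under the 95th percentile of background on all 10 arrays, so their likeness is between values within background.

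Several genes like GCNA differed little with OR21 in MDSL, where GCNA itself was lowest. TKTL1 differed by 4.57 log2 in HL60, 4.68 in K562, 2.02 in SKM1 and -0.02 in MDSL. GPX3 differed by 6.00 in HL60, 4.37 in K562, 2.88 in SKM1 and 0.18 in MDSL. TKTL1, unlike GCNA, was well above background in every control, at 10.79 to 12.11 log2. EFEMP2, among those like DAZL, differed more evenly, by 1.30 in HL60, 1.34 in K562, 1.81 in SKM1 and 1.31 in MDSL. None of these 10 genes passed the test over the 4 lines, with adjusted p from 0.0925 for EFEMP2 to 0.159 for ST6GALNAC2 in limma. Of all genes 0.0396% passed higher and 0% lower.

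Genes next to the members on the chromosome are given beside them. Their lower mean differences were fixed in advance, as the members ranked 1 and 2 of all genes. The 3 nearest measured genes on either side of each member were taken from the RefSeq gene order, 12 genes in all. In the limma fit over the 4 lines 0 of the 12 passed, and the smallest adjusted p was 0.102, for OXNAD1. Over all genes 0.0396% passed higher and 0% lower. OXNAD1, near DAZL, stood at -1.41 ± 0.37 log2 (SD, n = 4 lines), with -1.95 in HL60, -1.09 in K562, -1.32 in SKM1 and -1.28 in MDSL, the reverse of DAZL in each line. Genes at least 2-fold lower in all 4 lines, as OXNAD1 was, made up 0.226% of all genes. RFTN1 and TBC1D5, the closest to DAZL on its 2 sides, stood at -0.49 ± 0.74 and 0.43 ± 0.69. Beside GCNA, the glycosyltransferase gene OGT stood at 0.72 ± 0.39 and the chemokine receptor gene CXCR3 at -0.10 ± 0.03. CXCR3 was under the 95th percentile of background on all 4 control arrays and on all 4 treated arrays.

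**Figure D3:**
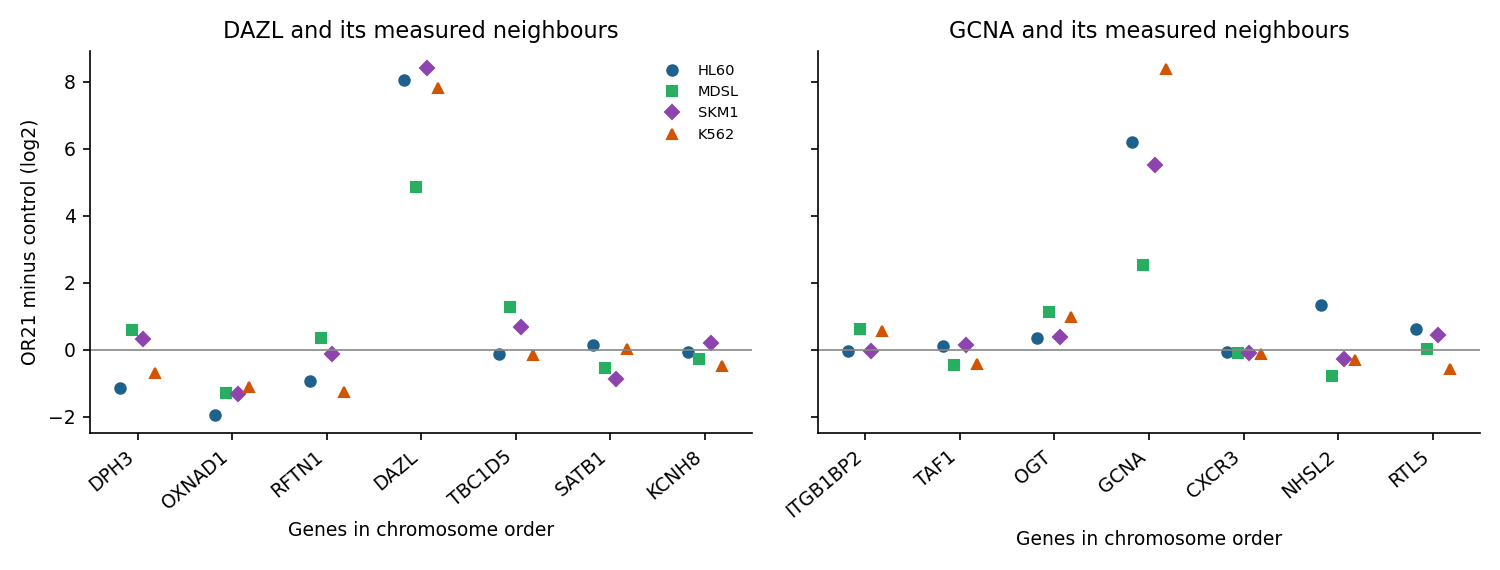
Difference between OR21-treated and control cells (log2, y axis) for DAZL, GCNA and the 3 nearest measured genes on each side (x axis, chromosome order), 1 point per line. Points of the neighbours lie between -1.95 and 1.35 log2, under all points of DAZL and GCNA.

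Other germ cell genes are given beside the members. The members ranked 1 and 2 of 17687 genes by mean difference, so every other gene had to have a lower mean. Over 5 germ cell lists, 77 genes were measured besides DAZL and GCNA, and 63 of them were under the 95th percentile of background in all 4 controls. The share over all genes was 43.9%. In the limma fit over 4 lines, 0 of the 77 passed in either direction at an adjusted p under 0.05, where the background was 0.0396% of genes higher (7 genes) and 0% lower. At an unadjusted p under 0.05 there were 16 of the 77, both directions together, where the background was 8.98% of genes higher and 10.1% lower. By list, 7 of 18 methylation-silenced genes were higher at that p in limma and 0 lower. Of 23 meiotic genes 4 were higher and 1 lower, and of 18 RNA regulators 3 and 2. Of 6 DAZL targets 2 were higher and 0 lower, and of 20 primordial germ cell genes 0 and 1. The lists share genes. The median difference of the 77 was 0.12 log2, against -0.02 over all genes, and 51 of the 77 were higher on average, against 8414 of all 17687 genes. Of these genes, 1 was at least 2-fold higher in all 4 lines, HORMAD1, and without MDSL it passed the test as the 1 gene of the 77 to do so. The 7 genes past the threshold became 1 without HL60, 2 without K562 and 0 without SKM1, where 2181 had an unadjusted p under 0.05.

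Among germline RNA regulators and partners of DAZL, 10 of 18 measured genes were higher on average, 8 were lower and 0 passed, with a median of 0.08 log2. BOLL, a relative of DAZL in the same family, was at 5.63 log2 in OR21-treated HL60, 5.07 in K562, 6.39 in SKM1 and 4.27 in MDSL, against controls of 4.41, 4.85, 4.11 and 4.29 in the same order. It was under the 95th percentile of background on all of these arrays. DDX4, the germ cell helicase VASA, was likewise under it on all 8 arrays, with a mean difference of 0.15 ± 0.65 (SD, n = 4 lines, adjusted p = 0.809 in limma). RBM46, an RNA-binding protein of meiotic germ cells, differed by 4.77 in SKM1 and by 0.17 to 0.65 in the other 3 lines. DZIP3, a ubiquitin ligase named for binding DAZ proteins, differed by 1.10 ± 0.20 and MEIOC, a meiotic factor, by 1.18 ± 1.34.

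Messages that mouse DAZL is known to bind were measured as 6 genes, of which 5 were higher on average and 0 passed, with a median of 0.32 log2. All 6 were under the 95th percentile of background in the 4 controls, as were 43.9% of all genes. SYCP3, an axis protein of meiotic chromosomes, was at 7.92 log2 in OR21-treated HL60, 10.12 in K562, 5.66 in SKM1 and 6.57 in MDSL, against controls of 5.18, 4.70, 5.17 and 5.49. The difference was 5.42 in K562 and 0.49 in SKM1, the line with the highest DAZL level. TEX11, an X-linked meiotic gene, was at 7.47 in treated K562, above background, and at 3.81 to 5.26 in the other treated lines. The protein level of DAZL and the translation of these messages were not measured.

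Primordial germ cell and pluripotency genes had a median difference of 0.01 log2, with 11 of 20 higher on average and 0 past the test. PRDM1, which also acts in myeloid and lymphoid cells, differed by 3.65 in HL60 and by -0.63 to 0.68 in the other lines. Of meiotic genes, 17 of 23 were higher on average and 0 passed, with a median of 0.11. STAG3, a meiotic cohesin subunit, differed by 2.07 ± 1.62 and the synaptonemal protein SYCP2 by 1.71 ± 1.24 (adjusted p = 0.151 and 0.144 in limma, n = 4 lines). Germline genes known to be silenced by promoter methylation had the largest median of the 5 lists, 0.48, with 15 of 18 higher on average and 0 past the test. In that list HORMAD1 differed by 4.74 ± 1.49 and MAEL, of the transposon-silencing pathway, by 3.60 ± 2.31.

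The members stood apart from several of these genes in the resistant derivatives. HORMAD1 was at 11.13 log2 in OR21-treated HL60, 13.18 in the AZA resistant and 13.25 in the OR21 resistant derivative, against 6.03 in parental HL60. MAEL was at 10.22, 12.42 and 11.51, against 4.83 in parental HL60. MEIOC was at 7.80, 10.94 and 10.83, against 5.23, and PIWIL2, a Piwi protein that binds small RNAs, at 5.54, 8.83 and 9.04, against 3.81. These 4 genes were above the edge of background in both untreated derivatives, where DAZL and GCNA were under it, and 2.8% of all genes were above it in both derivatives and under it in parental HL60. STAG3 was also above the edge in the AZA resistant and OR21 resistant derivatives, at 8.25 and 8.32, and so was RBM46, at 8.40 and 7.79. SYCP3 and SYCP2 were instead under it in both derivatives, as the members were. SYCP3 was at 7.92 in OR21-treated HL60 and 4.46 and 4.94 in the derivatives, against 5.18 in parental HL60. SYCP2 was at 7.34 in OR21-treated HL60 and 6.02 and 5.76 in the derivatives, against 4.68 in parental HL60.

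Of the 77 germ cell genes, 15 were at least 2-fold higher in the AZA resistant derivative (background 7.04%) and 1 was lower (background 5.11%). In the OR21 resistant derivative 15 were higher (background 7.69%) and 2 were lower (background 4.27%). Both comparisons use the same parental array, each derivative has 1 array, and no test was possible.

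**Figure D4:**
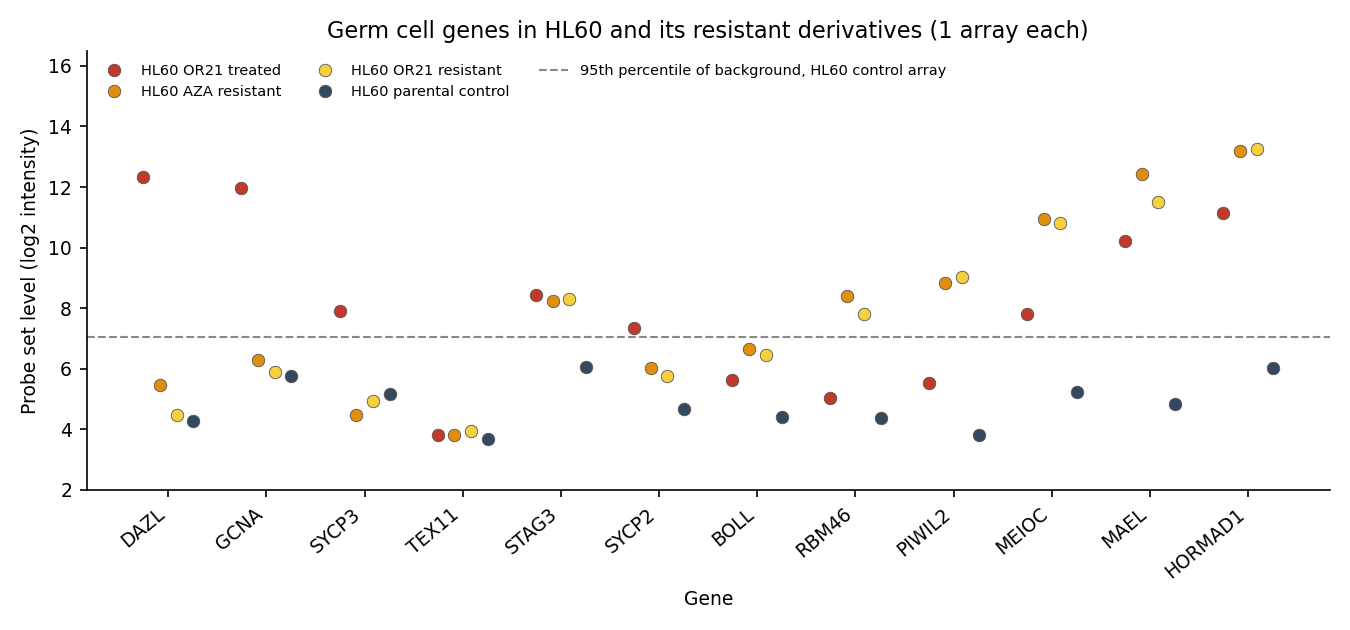
Probe set level (log2 intensity, y axis) of DAZL, GCNA and 10 other germ cell genes (x axis) in OR21-treated HL60, its AZA resistant and OR21 resistant derivatives and parental HL60, 1 array each, with the 95th percentile of background of the HL60 control array dashed. Points of different genes come from different probes and are compared within a gene only. DAZL, GCNA, SYCP3 and SYCP2 are above the line in treated HL60 alone. HORMAD1, MAEL, MEIOC, PIWIL2, STAG3 and RBM46 lie above it in both derivatives.

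Genes that repress germline promoters had a median difference of -0.22 log2 with OR21, with 16 of 24 lower on average and 0 past the test. The background for the test was 0.0396% of genes higher and 0% lower. At an unadjusted p under 0.05 in limma 9 of the 24 were lower and 2 higher, where the background was 10.1% lower and 8.98% higher. DNMT1, the maintenance DNA methyltransferase, was at 9.98 log2 in OR21-treated HL60, 10.38 in K562, 9.89 in SKM1 and 9.48 in MDSL, against controls of 11.06, 10.83, 11.01 and 11.38. Its mean difference was -1.13 ± 0.60 (SD, n = 4 lines, adjusted p = 0.125 in limma). The difference was smallest in size in K562, -0.44, and largest in MDSL, -1.90. A link between the DNMT1 message and the 2 members was not tested, and DNMT1 protein was not measured. UHRF1, which guides DNMT1 to newly copied DNA, differed by -1.18 ± 0.64, and WDR5 by -1.14 ± 0.42. DNMT3A, a de novo methyltransferase, differed by 1.66 ± 0.85. In the derivatives DNMT1 was at 11.12 in the AZA resistant and 11.10 in the OR21 resistant cells, against 11.06 in parental HL60. DNMT3A was higher there, at 8.61 and 8.76 in the same order, against 7.24 in parental HL60. UHRF1 was at 11.38 and 11.26, against 11.56.

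Other genes of DNA-protein crosslink repair, the process to which GCNA belongs, did not pass the test in either direction. The background was 0.0396% of genes higher and 0% lower, so this count says little about so short a list. Of 18 measured genes, 10 were higher and 8 lower on average, with a median of 0.07 log2. SPRTN, the SprT-family protease of replicating cells, was at 9.78 in OR21-treated HL60, 10.25 in K562, 10.96 in SKM1 and 9.99 in MDSL, against controls of 9.66, 10.53, 10.55 and 9.59. Its mean difference was 0.17 ± 0.32 (SD, n = 4 lines, adjusted p = 0.697 in limma). Unlike GCNA, SPRTN was above background on all arrays. TOP1, whose protein can be trapped on DNA, differed by 0.68 ± 0.31, and TDP1, which frees trapped TOP1, by -0.87 ± 0.65. The SUMO ligase PIAS1 differed by 0.55 ± 0.14 and the SUMO activating subunit SAE1 by -0.70 ± 0.27.

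Markers of other testis cells were measured beside these results. Of 7 spermatid markers, all 7 were under the 95th percentile of background in the 4 controls and 0 were above it on all 4 treated arrays. Over all genes 43.9% were under that edge in the 4 controls, and 0.0678% were also above it on all 4 treated arrays. Their summed log2 level was 28.8 to 32.2 in treated and 29.7 to 32.8 in control arrays. Of 6 Leydig markers, all 6 were under that edge in the controls, and 7 of 8 Sertoli and granulosa markers were, WT1 being above it. The summed Leydig level was 28.6 to 33.1 in treated and 29.0 to 30.2 in control arrays, and the Sertoli and granulosa sum was 39.0 to 45.2 and 41.0 to 43.2. In 3 such lists 0 genes passed in either direction, where the background was 0.0396% of genes higher and 0% lower.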

How the data were processed

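The authors deposited 1 intensity per probe set on a linear scale (4.25 to 405294) for each of 10 single-colour arrays, hybridised with biotin-labelled material per the labels. The software and normalization used by the authors are not given in the sources used here. Gene medians lay between 6.63 and 7.05 log2 on all arrays, so values were taken as normalized and put on the log2 scale without a pseudocount. A platform annotation gave 1 symbol to 17709 of 24351 rows and several to 0, and 6642 rows are unnamed here. For 20 genes with several probe sets the brightest was kept, which left 17687 genes. An array has no read depth, and precision is limited by the number of arrays. 0 columns belonged to no sample.

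The fit over 4 lines used limma 3.58.1 in R 4.3.3 (lmFit, eBayes), cell line as a block, two-sided, Benjamini-Hochberg over all genes, threshold 0.05, with 3 residual and 3.49 prior degrees of freedom. The line is the pair and the only replicate. The p-values measure the spread between lines. The dose comparison was an interaction in the same fit. Steps were tested on simulated data.

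Members and lists were chosen with earlier results of these data known. Named genes were the members, the 5 genes most correlated with each, the 3 nearest neighbours on each side, genes of a list past the threshold or else its 4 largest mean differences, and 8 fixed genes. The 12 lists hold genes from general knowledge. Alternatives were quantile normalization, median centring, no block, a filter at the 30th percentile of mean level, 2 background floors, the mean of probe sets, leaving out each line and, added after seeing the data, scaling to hybridisation spikes. Proteins are not shown here.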

Additional observations from a re-analysis of the deposited data

Results flagged for a closer look

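In groups of 4 lines, 1 line stood far from the others for 7 of the named genes. The measure was the gap to its nearest neighbour as a share of the range, past Dixon's 95% critical value. Chance gives about 1 such gene in 20 among genes not picked on these data, and the share over all genes was not counted. Many named genes were picked for the size or likeness of their differences. The 7 are therefore a description and are not set against that rate. For germ cell genes the share was 0.919 for DDX4 and 0.896 for RBM46, both highest in SKM1, and 0.849 for CRISP2, highest in K562. It was 0.858 for PAGE2B and 0.858 for SLC67A1, both lowest in MDSL. It was 0.922 for EFEMP2, highest in SKM1, and 0.976 for MPO, which was higher by 4.49 log2 in MDSL and lower in the other lines. DDX4, CRISP2 and SLC67A1 were under the 95th percentile of background on all control and treated arrays, so their gaps lie within background. DAZL and GCNA were not among the 7 genes.

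For 3 neighbours of DAZL both lines at 500 nM moved one way and both at 100 nM the other. The 500 nM minus 100 nM gap was -1.38 log2 for DPH3, -1.11 for TBC1D5 and 0.80 for SATB1. The interaction in limma gave adjusted p = 0.877 for each of them.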

How the results depend on the processing

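Under the alternatives 94 values kept their direction and side of the threshold or size. The DAZL difference over the lines was 4.51 with the floor at the 95th percentile of background. With 1 line left out it was 6.90 to 8.08, and that of GCNA 4.75 to 6.70. Over all alternatives the GCNA difference ran from 4.08 to 6.70. The DAZL difference of the AZA resistant derivative was 0.0445 with the floor at the background median and 0.0330 with the floor at the 95th percentile, since the median floor raises the parental value to just under that of the derivative and the other raises both. With 1 line left out the DAZL dose gap ran from -0.49 to 3.06 and the GCNA gap from 1.78 to 4.75. Genes past the threshold were 1 without the cell line block (no replicate block), 3 with the floor at the background median, 0 with the floor at the 95th percentile (2382 at an unadjusted p under 0.05 in limma) and 240 scaled to hybridisation spikes (chosen after seeing the data), and 0 to 5 with 1 line left out. Genes at least 2-fold higher in all lines were 32 with the floor at the 95th percentile, and 106 to 288 with 1 line left out. The pattern of the rule held for 15 genes with that floor and 52 to 139 with 1 line left out. Of the 77 germ cell genes, 2 passed when scaled to spikes and 0 to 1 with 1 line left out. Except where the floor itself sets the value or fewer lines enter, the cause was not tested. No paired analysis was possible by replicate number because the labels give none. The cell line is the pair and is in the fit as the block. Signal over background limits every control and derivative value of both genes.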
